A study of Mus musculus with 9 samples.

Results

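The alpha and mu glutathione transferases of mouse liver were described here as 10 genes, Gsta1, Gsta2, Gsta3 and Gsta4 of the alpha class and Gstm1, Gstm2, Gstm3, Gstm4, Gstm6 and Gstm7 of the mu class. They were taken by gene symbol from the deposited count tables, where all 10 were found among 23420 genes, in every one of the 9 libraries. The livers came from wild-type C57BL/6 males fed the soy-free AIN-93G diet, a purified rodent feed, for 50 days from 5 weeks of age until harvest at 12 weeks. The diets differed in iron content, with 2.5 mg per kg (low iron), 37.5 mg per kg (sufficient iron) and 1000 mg per kg (high iron), and 3 mice received each. Each library is called here by its diet and its title's number, and no number occurs in more than 1 diet. The series compared how dietary iron relates to the liver transcriptome. Its hemojuvelin knockout mice are not analysed here.

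Glutathione transferases are soluble enzymes that join glutathione to reactive, electrophilic compounds, which are then exported from the cell by pumps of the Abcc family. The alpha and mu classes are abundant in hepatocytes, and many of their genes are known to be induced by electrophiles through the transcription factor NRF2 (gene Nfe2l2), which binds antioxidant response elements. Other inducers act through the nuclear receptors CAR and PXR or through the aryl hydrocarbon receptor AHR. Iron can catalyse the peroxidation of membrane lipids, and some of the aldehydes this yields are substrates of Gsta4.

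The 9 libraries held 22 to 33.8 M reads in genes, and members of the 10-gene set took 0.247% to 0.653% of them. Rn45s, the precursor of ribosomal RNA, took 43.7% of the gene reads in low-iron replicate 1 and 40.5% in high-iron replicate 12. The remaining libraries had 12.5% to 23.8%. Across genes, each library's deviation from the gene mean correlated with transcript length, with Spearman's rho from -0.374 in low-iron replicate 1 and -0.373 in high-iron replicate 8 to 0.336 in sufficient-iron replicate 6. The 2085 genes with transcripts as long as the members' (870 to 1707 nucleotides) had a median deviation between -0.18 and 0.26 log2 units per library. By diet these medians were 0.26, -0.05 and 0.03 on low iron, -0.07, -0.18 and -0.06 on sufficient iron and 0.00, 0.14 and -0.07 on high iron. Hepatocyte markers were high in every library, with a summed level of 44147 to 68052 CPM (reads per 1000000 reads of the scaled library) over 6 genes. Of 6 pancreas markers, Prss1, Cpa1, Pnlip, Amy2a5 and Ctrb1 were listed at 0 throughout, and the list summed to 4.07 to 12 CPM. Of 6 adipocyte markers, Plin1 and Lep were listed at 0, and the list summed to 11.1 to 67.4 CPM. Of the red cell markers, Alas2 averaged 102 ± 20.9 CPM on low iron, 71 ± 9.75 on sufficient iron and 34.1 ± 5.33 on high iron. Its log2 fold change was -1.06 for high against sufficient iron (edgeR adjusted p = 0.0479) and -1.58 for high against low iron (edgeR adjusted p = 0.0113). Hba-a1, Hba-a2, Hbb-b1 and Hbb-b2, red cell markers too, were listed at 0 throughout as well. A 0 in these counts therefore need not mean that the RNA was absent. Each library is whole liver, so fewer cells of a type and less RNA per cell cannot be told apart.

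The members are close paralogs, and the deposited counts hold only reads that aligned to 1 place. How much of each gene such reads can cover was measured on the GENCODE M21 transcripts (mouse build GRCm38). Of all windows of 50 bases in its transcript, Gsta1 had 10.3% found in no other gene, with the rest shared mainly with Gm3776, Gsta2 and Gm10639. Gsta2 had 35.8% of such windows unique, or 65% with windows of 100 bases. Gstm1 had 76.9%, Gstm3 71.2%, Gstm6 88.2% and Gstm2 90.6% of 50-base windows unique, and Gsta3, Gsta4, Gstm4 and Gstm7 had 100%. Read length is not given in the sources used here. Counts of Gsta1 and Gsta2 are therefore the least certain of the 10, and the reads shared between them are missing from both.

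**Figure D1:**
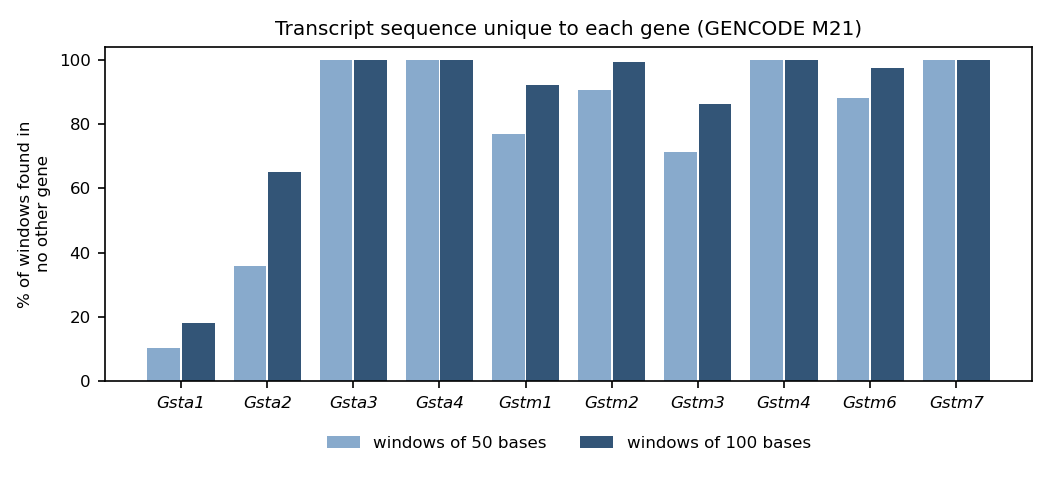
Percentage of 50-base (light bars) and 100-base (dark bars) windows of each member's principal transcript that occur in no other gene of GENCODE M21. Gsta1, at 10.3% and 18.2%, and Gsta2, at 35.8% and 65%, have the least unique sequence.

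The coding sequences of Gsta1 and Gsta2 are 97.6% identical (653 of 669 aligned bases), while the 15 pairs among the mu members are 79.1% to 89.4% identical. To be assigned, a read must span a base that differs, anywhere in the transcript. The stretches below were picked as the windows with the most differences within each pair, so they are not typical. Over the whole coding sequence Gstm1 and Gstm2 are 85.9% identical. They are 90 bases of coding sequence, 5′ to 3′, from coding base 419 to 508 in the alpha pair and from 562 to 651 in the mu pair, with capitals at the bases that differ between the paired genes. The alpha pair differs at 5 bases, all of them towards the 3′ end of the stretch. The mu pair, Gstm1 and Gstm2, differs at 22 bases.
Gsta1: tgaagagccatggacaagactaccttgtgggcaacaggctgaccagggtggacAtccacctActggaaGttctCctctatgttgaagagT
Gsta2: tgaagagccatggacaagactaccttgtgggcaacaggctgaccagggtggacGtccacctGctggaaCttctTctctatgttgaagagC
Gstm1: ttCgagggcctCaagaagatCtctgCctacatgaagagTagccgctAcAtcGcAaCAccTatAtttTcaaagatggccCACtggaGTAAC
Gstm2: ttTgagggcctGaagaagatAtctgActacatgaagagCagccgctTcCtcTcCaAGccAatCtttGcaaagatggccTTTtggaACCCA

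Gsta1, Gsta2 and Gsta4 lie on chromosome 9 of GRCm38, at 78230656 to 78242684, 78331018 to 78355788 and 78182774 to 78209349. Gsta3 lies apart from them on chromosome 1, at 21240589 to 21265661. The mu members form a cluster on chromosome 3, all on the minus strand, in the order Gstm7 (from 107926334), Gstm6, Gstm3, Gstm2, Gstm1 and Gstm4 (to 108044894). The count tables hold no coordinates, and these positions come from GENCODE M21.

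Levels per transcript length, as CPM per kb, put Gstm1 and Gsta3 far above the other members. Gstm1, the main mu subunit of mouse liver, averaged 1187 ± 577 CPM per kb on low iron, 789.7 ± 97.4 on sufficient iron and 2321 ± 626 on high iron (SD, n = 3 mice each). Gsta3, known in mouse for detoxifying the epoxide of aflatoxin, averaged 894 ± 29.9, 692 ± 55.1 and 686 ± 63.6 CPM per kb on low, sufficient and high iron. The ranges of Gstm1 and Gsta3 overlapped on low and on sufficient iron, while on high iron Gstm1 was above Gsta3 in all 3 livers. Over all 9 libraries Gstm6, Gstm2, Gstm3, Gstm4, Gstm7 and Gsta4 followed, in that order, with means of 87.9, 66, 54.7, 47.4, 40.9 and 38.7 CPM per kb. Among these 6 genes most neighbours overlapped within a diet. On low iron Gstm2 stood clear of Gstm3. On high iron Gstm6 stood clear of Gstm4, the next below it on that diet, and Gstm3 stood clear of Gsta4. Gsta2, at a mean of 7.03 CPM per kb, and Gsta1, at 1.01, were below every other member in all 9 libraries. This scale divides unique reads by the whole transcript, of which Gsta1 and Gsta2 have unequal unique shares (10.3% and 35.8% of 50-base windows), so these values do not order Gsta1 and Gsta2 against each other.

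Among the alpha genes, Gsta2 was the one whose level changed past the threshold. Gsta2, an inducible alpha subunit of mouse liver, had 5.54, 5.93 and 5.32 CPM in the low-iron livers, 3.35, 4.23 and 2.59 CPM in the sufficient-iron livers and 9.66, 11.4 and 7.05 CPM in the high-iron livers. The diets did not overlap, with sufficient iron lowest, low iron between and high iron highest. High iron was 2.76-fold above sufficient iron, a log2 fold change of 1.47 ± 0.22 (standard error; adjusted p = 0.0341, edgeR quasi-likelihood test, Benjamini-Hochberg over 13020 genes). Low iron was 0.72 ± 0.22 log2 units above sufficient iron (edgeR adjusted p = 0.446), and high iron was 0.75 ± 0.22 above low iron (edgeR adjusted p = 0.195), neither of which passed the threshold of 0.05. The call against sufficient iron was lost in 9 of 20 alternative analyses, with log2 fold changes of 1.22 to 1.67 over all 20. It was lost without low-iron replicate 5 (edgeR adjusted p = 0.056) or 9 (0.0517), sufficient-iron replicate 2 (0.0951) or 10 (0.0837), and high-iron replicate 4 (0.112) or 8 (0.222). It was also lost with an offset for transcript length (0.0655) and with the 6 compared libraries alone (0.0581).

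Gsta4, which conjugates the lipid aldehyde hydroxynonenal, had 34.7, 38.6 and 34 CPM on low iron, 31.9, 33.7 and 26.1 CPM on sufficient iron and 46.5, 54.8 and 40.2 CPM on high iron. All 3 high-iron livers were above the other 6, and low iron lay just above sufficient iron without overlap. The log2 fold change was 0.63 ± 0.14 for high against sufficient iron (edgeR adjusted p = 0.131) and 0.40 ± 0.14 for high against low iron (edgeR adjusted p = 0.324), short of the threshold. DESeq2 put the comparison with sufficient iron past it, at an adjusted p of 0.00758. Gsta3 ran differently, with 1275, 1353 and 1281 CPM on low iron, 1099.8, 948 and 978 CPM on sufficient iron and 1021, 1079 and 898 CPM on high iron. Its low-iron livers were above all others, while high and sufficient iron overlapped and had a log2 fold change of -0.01 ± 0.12. Gsta3 was 0.37 ± 0.12 log2 units higher on low than on sufficient iron (edgeR adjusted p = 0.446) and had a log2 fold change of -0.38 ± 0.12 for high against low iron (edgeR adjusted p = 0.241). DESeq2 put both past the threshold, with adjusted p-values of 0.015 and 0.0193.

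Gsta1, the close copy of Gsta2, was barely detected. Its read counts were 9, 10 and 9 on low iron, 16, 95 and 12 on sufficient iron and 39, 50 and 11 on high iron. Sufficient-iron replicate 6 alone held 95 reads, and Gm3776, which shares sequence with Gsta1, had 38 reads there against 2 to 9 in the other libraries. The log2 fold change of Gsta1 for high against sufficient iron was 0.16 ± 0.61 with that library and 1.40 without it, and neither passed (edgeR adjusted p = 0.942 and 0.572). Gsta2 had 184 reads in the same library, against 92 and 94 in the other sufficient-iron libraries, and 4.23 against 3.35 and 2.59 CPM.

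**Figure D2:**
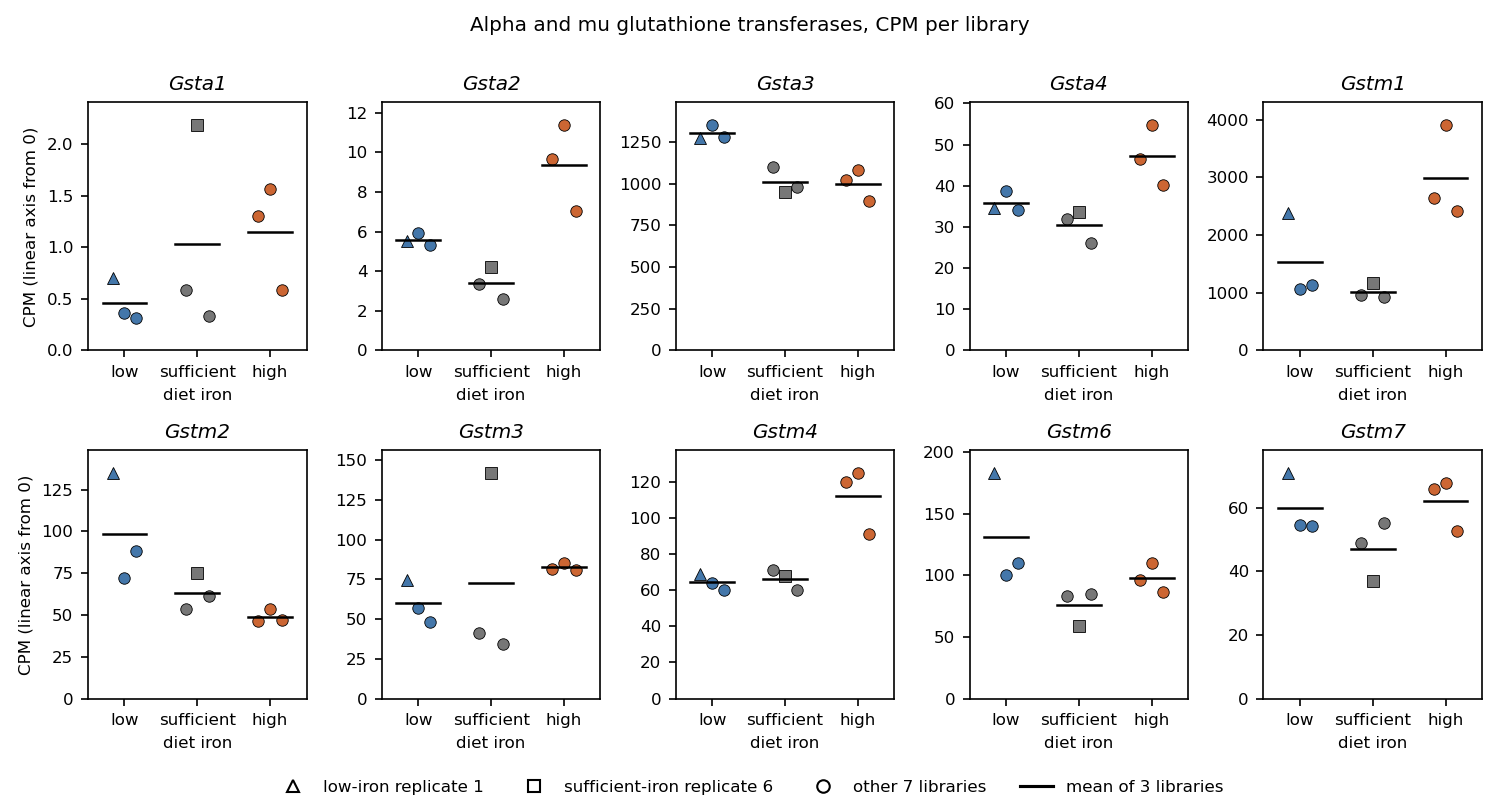
Level of each member in CPM (vertical axis, starting at 0, its own scale per gene) in the 3 livers of each diet, low, sufficient and high iron from left to right, with a line at the mean of 3. A triangle marks low-iron replicate 1 and a square sufficient-iron replicate 6. Gsta2, Gsta4, Gstm1 and Gstm4 have their 3 highest livers on high iron, while the Gstm2 livers on high iron lie below those on low iron.

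Of the mu genes, Gstm1 had the highest level and the largest log2 fold change, and Gstm4 was the one whose level changed past the threshold. Gstm1 had 2388, 1062 and 1142 CPM on low iron, 956, 1163 and 935 CPM on sufficient iron and 2642, 3913 and 2418 CPM on high iron. High iron was above the other diets in every liver, although the lowest high-iron liver, at 2418 CPM, was close to low-iron replicate 1, at 2388 CPM. Low-iron replicate 1 was also the library richest in Rn45s, whose part in this value was not tested. The log2 fold change of high against sufficient iron was 1.56 ± 0.30, a 2.94-fold difference, and did not pass (edgeR adjusted p = 0.0898). It passed in 5 of 20 alternatives, among them without low-iron replicate 1 (edgeR adjusted p = 0.0148), with the 6 compared libraries alone (0.0371), with the length offset (0.0403) and in DESeq2 (6.66e-05). Against low iron Gstm1 was 0.97 ± 0.30 log2 units higher on high iron (edgeR adjusted p = 0.245), or 1.45 without low-iron replicate 1 (edgeR adjusted p = 0.0208).

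Gstm4 had 68.9, 64.2 and 59.9 CPM on low iron, 71, 67.8 and 59.9 CPM on sufficient iron and 120.2, 125 and 91.2 CPM on high iron. The low and sufficient diets covered nearly the same range, and all 3 high-iron livers were above it. Gstm4 rose 1.75-fold on high against low iron, a log2 fold change of 0.80 ± 0.14 (edgeR adjusted p = 0.0339). Against sufficient iron the log2 fold change was nearly as large, 0.76 ± 0.14, and did not pass (edgeR adjusted p = 0.0634). The call against low iron was lost without low-iron replicate 5 (edgeR adjusted p = 0.118) or 9 (0.138), without high-iron replicate 4 (0.161) or 8 (0.15) and with the 6 compared libraries alone (0.0529). Its log2 fold change kept within 0.72 to 0.98 over 20 alternatives, and Gstm4 has no 50-base window in common with another gene.

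Gstm2 went the other way, with 135, 72.1 and 88 CPM on low iron, 53.5, 75 and 61.3 CPM on sufficient iron and 46.6, 53.6 and 47 CPM on high iron. The low-iron livers were all above the high-iron livers, and sufficient iron overlapped both. High against low iron gave a log2 fold change of -1.0 ± 0.21, 0.5 of the low-iron level (edgeR adjusted p = 0.0739), which was -0.70 without low-iron replicate 1 (edgeR adjusted p = 0.0808). The length offset took it past the threshold at -0.89 (edgeR adjusted p = 0.0364), as did DESeq2 (adjusted p = 0.00114). Markers of pericentral hepatocytes moved in the same comparison, with 8 of 9 lower on high than on low iron (median -0.63). Of these, 2 passed the threshold, Rhbg (log2 fold change -1.51) and Oat (-1.14). Periportal markers (6 of 7 tested, median -0.18) and general hepatocyte markers (6 of 6, median -0.36) were lower as well, none past the threshold in edgeR. The pericentral markers summed to 5750.1 to 7793 CPM on low iron, 3617 to 5619 on sufficient iron and 5042 to 5949 on high iron. The part of any of these hepatocyte markers in the Gstm2 result was not tested.

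Gstm6 had 183, 100.4 and 109.7 CPM on low iron, 83, 58.9 and 84.6 CPM on sufficient iron and 95.9, 110.0 and 86.4 CPM on high iron. Both the low and the high diet were above sufficient iron in every liver, by 0.79 ± 0.23 log2 units on low iron (edgeR adjusted p = 0.446) and by 0.37 ± 0.23 on high iron (edgeR adjusted p = 0.63). Low-iron replicate 1 was the highest, and without it the low-iron difference was 0.47 (edgeR adjusted p = 0.639). DESeq2 put the difference of all low-iron livers past the threshold, at an adjusted p of 0.0201. Gstm7 had 54.2 to 70.9 CPM on low iron, 36.9 to 55.2 CPM on sufficient iron and 52.6 to 67.8 CPM on high iron, and the diets overlapped. Gstm3, in mouse a strongly inducible mu subunit, had 74.7, 57 and 48.5 CPM on low iron, 41.5, 142 and 34.4 CPM on sufficient iron and 81.8, 85.2 and 81.1 CPM on high iron. The high-iron livers lay between 81.1 and 85.2 CPM, while sufficient-iron replicate 6 was above every other liver and the remaining sufficient-iron livers were below all others. The log2 fold change of Gstm3 for high against sufficient iron was 0.19 ± 0.44 (edgeR adjusted p = 0.897) and 1.12 without sufficient-iron replicate 6 (edgeR adjusted p = 0.0669).

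Ratios within a library do not depend on how libraries are scaled. For every 100 reads of Gstm1 there were 5.65, 6.79 and 7.7 reads of Gstm2 on low iron, 5.6, 6.45 and 6.56 on sufficient iron and 1.76, 1.37 and 1.94 on high iron. Likewise 100 reads of Gsta3 stood beside 0.434, 0.438 and 0.415 reads of Gsta2 on low iron, 0.305, 0.446 and 0.265 on sufficient iron and 0.946, 1.06 and 0.785 on high iron. In both ratios the 3 high-iron livers were apart from the other 6. Gstm1 made up 86.6% to 89.9% of the reads of the 6 mu members on high iron and 75.3% to 81.8% on the other diets. Gstm6 made up 2.53% to 3.14% on high iron and 3.82% to 7.3% on the others. Gstm5, a mu gene outside the members, is not in these shares and averaged 6.87, 5.82 and 5.63 CPM on low, sufficient and high iron. Gsta3 made up 94.1% to 94.9% of the reads of the alpha members on high iron and 95.9% to 97.1% on the other diets.

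**Figure D3:**
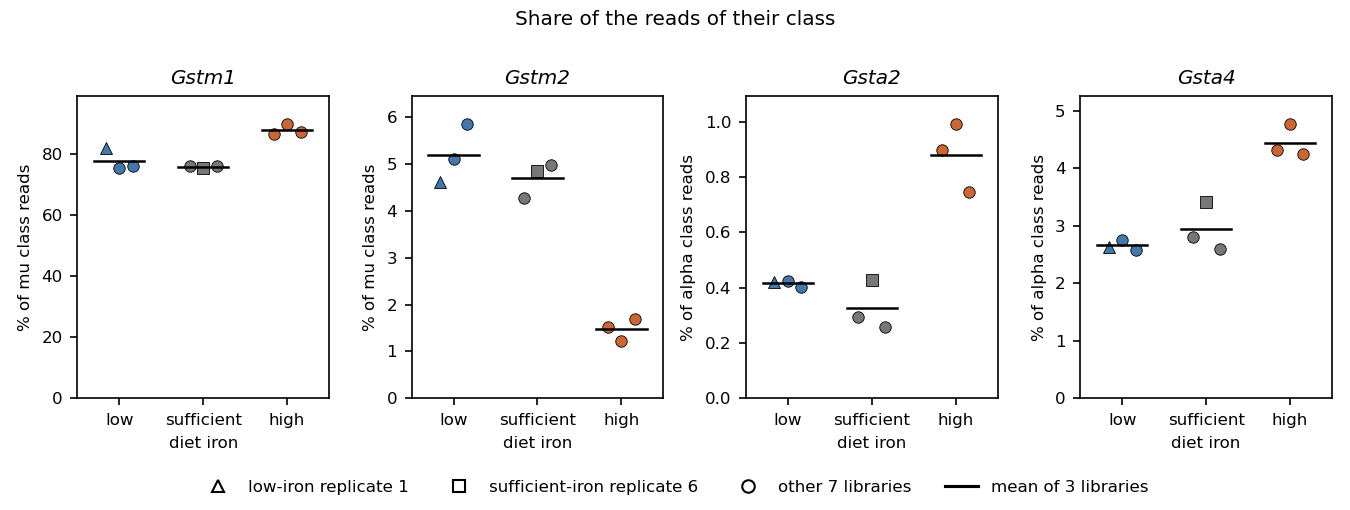
Share of the reads of the members of each class (vertical axis, percent) taken by Gstm1, Gstm2, Gsta2 and Gsta4 in the 9 libraries, grouped as low, sufficient and high iron, with 1 point per liver and a line at the mean of 3 (triangle, low-iron replicate 1, and square, sufficient-iron replicate 6). Gstm1 takes its largest and Gstm2 its smallest share of mu reads on high iron, and Gsta2 and Gsta4 take their largest shares of alpha reads there.

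Summed, the 6 mu members reached 1944 ± 847 CPM on low iron, 1343 ± 174 on sufficient iron and 3395 ± 843 on high iron (SD, n = 3 each). The alpha members summed to 1345 ± 46.2, 1044 ± 80.2 and 1057 ± 102 CPM on low, sufficient and high iron. Most of the mu sum was Gstm1 and most of the alpha sum Gsta3. Of the mu sums, the low-iron SD rested on replicate 1 at 2920.3 CPM, beside 1410.4 and 1502 CPM in replicates 5 and 9.

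In high against sufficient iron, 1 of 10 members passed the threshold (Gsta2, higher), against 0.215% of the 13020 tested genes (28 genes), or 0.0998% when only higher genes are counted. The members' median log2 fold change was 0.39, against -0.01 over all tested genes, with 8 positive and 2 negative. In 5 members, Gsta2, Gsta4, Gstm1, Gstm4 and Gstm6, every high-iron liver was above every sufficient-iron liver, as in 8.99% of tested genes, and no member showed the reverse, as 8.85% of tested genes did. An unadjusted p under 0.05 was reached by 5 members and by 9.28% of tested genes. DESeq2 called 4 members, Gsta2, Gsta4, Gstm1 and Gstm4, all higher on high iron, and 218 genes in all. Of the Kupffer cell markers, 7 of 7 tested had negative log2 fold changes (median -0.49), none past the threshold in edgeR, with sums of 175 to 222 CPM on high iron and 201 to 333 CPM on sufficient iron. Hepatocyte markers were split, 3 positive and 3 negative. The part of other cell types in the members' values was not tested.

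In low against sufficient iron, no member and 0 of 13020 genes (0%) passed in edgeR. An unadjusted p under 0.05 was reached by 4 members, Gsta2, Gsta3, Gstm2 and Gstm6, all higher on low iron, and by 11.2% of tested genes (1458 genes). DESeq2 called 2 members, Gsta3 and Gstm6, among 105 genes, but gave an adjusted p to 3 of the 10 members alone, these and Gstm1. In limma-voom 0 members were called. The members' median log2 fold change was 0.36, against 0.00 over all tested genes. Genes with transcripts as long as the members' had median deviations of 0.26, -0.05 and 0.03 log2 units on low iron. On sufficient iron these were -0.07, -0.18 and -0.06. The part of transcript length in the members' median was not tested. Hepatocyte markers were shifted in the same direction as the members, with 6 of 6 higher on low iron (median 0.31). They summed to 58542 to 68052 CPM on low iron and 46940.4 to 65679 CPM on sufficient iron. Of the pericentral markers 8 of 9 (median 0.45), and of the tested periportal markers 6 of 7 (median 0.29), were also higher on low iron. Markers of Kupffer cells (7 of 7, median -0.79), endothelial cells (7 of 7, -0.31) and stellate cells (7 of 7, -0.36) were lower on low iron. None of these markers passed the threshold in edgeR. Their sums were 86.8 to 206, 131 to 218 and 191 to 264 CPM on low iron, against 201 to 333, 196 to 239 and 210.2 to 454 CPM on sufficient iron. The part of these shifts in the members' values was not tested. In Gsta2, Gsta3, Gsta4 and Gstm6 every low-iron liver was above every sufficient-iron liver, as in 8.81% of tested genes, and no member was lower without overlap, as 7.83% were.

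In high against low iron, 1 of 10 members passed (Gstm4, higher), against 0.507% of tested genes (66 genes), or 0.161% counting higher genes. No member passed as lower, as 0.346% of tested genes did. Gsta2, Gsta4, Gstm1, Gstm3 and Gstm4 were higher without overlap, as 7.59% of tested genes were, and Gsta3 and Gstm2 were lower without overlap, as 8.15% were. The members' median log2 fold change was 0.43, against -0.01 over all tested genes. Hepatocyte markers went against it, with 6 of 6 lower on high than on low iron (median -0.36), while Kupffer and stellate markers were higher (7 of 7 each, medians 0.22 and 0.32), none past the threshold in edgeR. DESeq2 called 4 members, with Gstm1 and Gstm4 higher and Gsta3 and Gstm2 lower on high iron. A test for any difference among the 3 diets called 0 members in edgeR and 0.215% of tested genes, with 7 members at an unadjusted p under 0.05, as in 10.7% of tested genes. Its lowest adjusted p among members was 0.053, for both Gsta2 and Gstm4, and DESeq2 called 6 members in it. The pairwise comparisons share libraries and are not independent of each other.

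**Figure D4:**
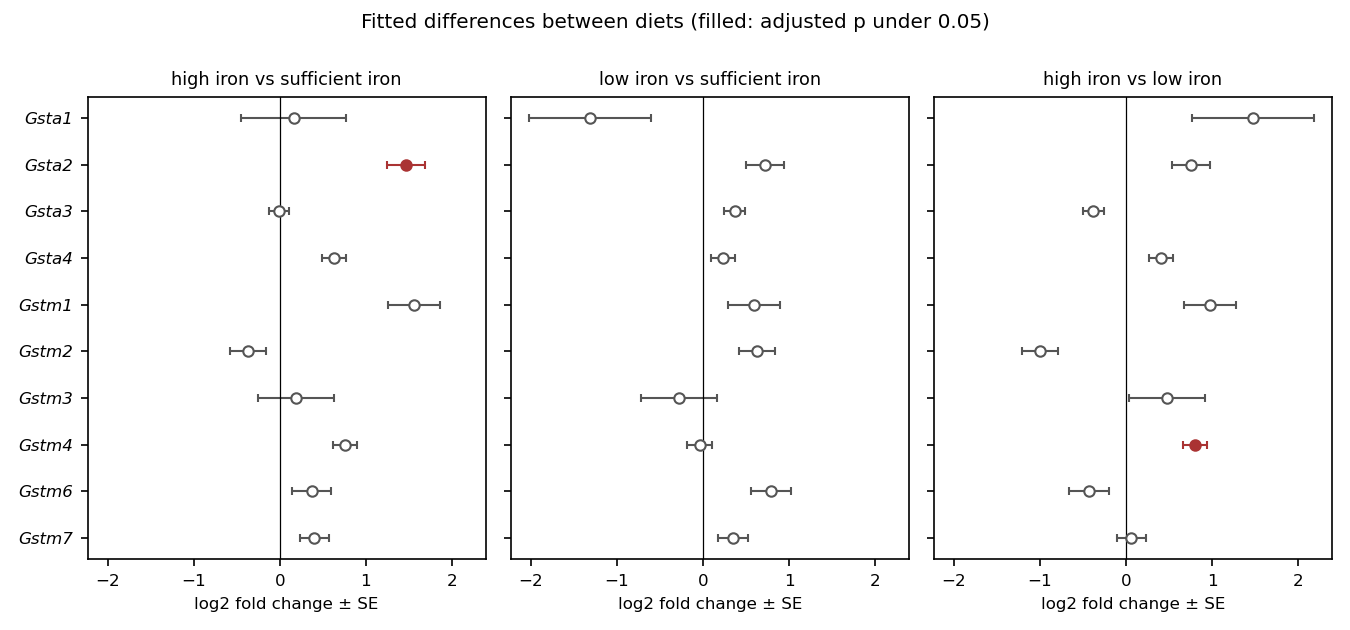
Log2 fold change of each member with its standard error, from edgeR, in the comparisons high against sufficient, low against sufficient and high against low iron. Filled markers passed an adjusted p of 0.05, which Gsta2 did for high against sufficient iron (1.47) and Gstm4 for high against low iron (0.80).

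Promoter sequence is shown for Gsta1 and Gsta2, whose coding sequences are nearly identical, and for Gstm1, the member with the largest fold change of high against sufficient iron. Each is the RefSeq window from 250 bases before to 50 bases after the transcript start on GRCm38.p6, at chr9:78230419-78230718 (plus strand, Gsta1), chr9:78347096-78347395 (minus strand, Gsta2) and chr3:108017769-108018068 (minus strand, the downstream of the listed Gstm1 starts), 5′ to 3′. Capitals mark matches on either strand to TGANNNNGC, a loose core of the antioxidant response element, and to GCGTG, the core bound by AHR.
Gsta1: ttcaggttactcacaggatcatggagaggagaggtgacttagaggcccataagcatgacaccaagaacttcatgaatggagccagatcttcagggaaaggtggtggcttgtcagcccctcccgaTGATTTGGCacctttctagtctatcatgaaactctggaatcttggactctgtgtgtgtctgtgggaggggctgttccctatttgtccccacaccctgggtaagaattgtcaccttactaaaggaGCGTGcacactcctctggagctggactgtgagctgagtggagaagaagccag
Gsta2: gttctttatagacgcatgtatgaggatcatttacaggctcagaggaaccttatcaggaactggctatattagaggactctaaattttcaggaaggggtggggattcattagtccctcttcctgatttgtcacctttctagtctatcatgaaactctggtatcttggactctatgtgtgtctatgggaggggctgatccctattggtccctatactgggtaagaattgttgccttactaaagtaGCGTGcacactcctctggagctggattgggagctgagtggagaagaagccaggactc
Gstm1: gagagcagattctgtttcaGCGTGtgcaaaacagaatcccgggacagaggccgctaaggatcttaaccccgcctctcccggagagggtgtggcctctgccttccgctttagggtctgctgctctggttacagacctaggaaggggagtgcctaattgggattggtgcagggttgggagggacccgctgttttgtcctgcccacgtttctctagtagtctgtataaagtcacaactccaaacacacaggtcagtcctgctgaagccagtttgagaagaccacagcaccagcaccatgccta

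The Gsta1 and Gsta2 windows aligned with 74.6% identical columns. Gsta1 held a TGANNNNGC match beginning 126 bases before the start, which the Gsta2 window did not hold, and both held GCGTG just before the start, beginning 2 bases before it in Gsta1 and 7 in Gsta2. The Gstm1 window held GCGTG once, beginning 231 bases before the start, and TATAAA beginning 30 bases before it. RefSeq windows were listed for 9 members, with 14 windows in all and none for Gsta4. In at least 1 of its windows TGANNNNGC was held by 5 members (Gsta1, Gsta3, Gstm3, Gstm4 and Gstm7), the stricter TGACNNNGC, a subset of it, by 2 (Gsta3 and Gstm7), GCGTG by 3 and TATAAA by 3. Counted by window, the members held these in 6, 2, 4 and 3 of their 14 windows, in the same order. Of 32851 promoter windows of the same length, 41.3% held TGANNNNGC, 12.4% TGACNNNGC, 32.4% GCGTG and 13.6% TATAAA. These shares compare with the counts by window, not with those by gene. These are letter matches in a short window and say nothing of binding.

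Patterns across the 9 libraries were compared by the mean absolute difference between genes' log2 CPM, each centred on its own mean. Among the members, Gsta4 and Gstm4 were nearest to each other, at 0.16 log2 units, and Gstm6 and Gstm7 were at 0.19. Gstm1 had Gsta2 as its nearest member, at 0.30, although they belong to different classes and chromosomes. Gstm2 was nearest to Gstm6, at 0.31, and Gsta1 stood farthest from any other, at 0.45 from Gstm3.

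Among 11512 genes averaging 1 CPM or more, the nearest to Gsta2 was Cyp4a10, a fatty acid hydroxylase, at 0.10 log2 units. Cyp4a10 had 299, 344 and 294 CPM on low iron, 187, 185 and 153 CPM on sufficient iron and 469.8, 578 and 364 CPM on high iron. As with Gsta2, sufficient iron was lowest and high iron highest without overlap, and the log2 fold change of high against sufficient iron was 1.43 ± 0.17 (edgeR adjusted p = 0.0194). Cyp4a10 also has close paralogs, and the share of its sequence that is unique was not measured. Next came Acot1, an acyl-CoA thioesterase (0.21), Acaa1b, a peroxisomal thiolase (0.22), Hsd17b11, a hydroxysteroid dehydrogenase (0.23), and Retsat, retinol saturase (0.27). Acaa1b was 0.89 ± 0.14 and Hsd17b11 1.02 ± 0.14 log2 units higher on high than on sufficient iron (edgeR adjusted p = 0.0341 and 0.0305), while Acot1 and Retsat did not pass. Since these genes were picked for a pattern like that of Gsta2, their direction is a description.

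The genes nearest to Gstm1 were less close and mostly low in level. They were 1700009P17Rik (0.28 log2 units), Gpx7, Ten1 and Unc93a (0.29 each) and Slc16a11 (0.30), at means of 2.57, 1.66, 3.05, 3.58 and 19.7 CPM on high iron. On sufficient iron their means were 1.16, 0.936, 1.72, 1.45 and 8.35 CPM, in the same order. None of them passed in edgeR in high against sufficient iron.

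**Figure D5:**
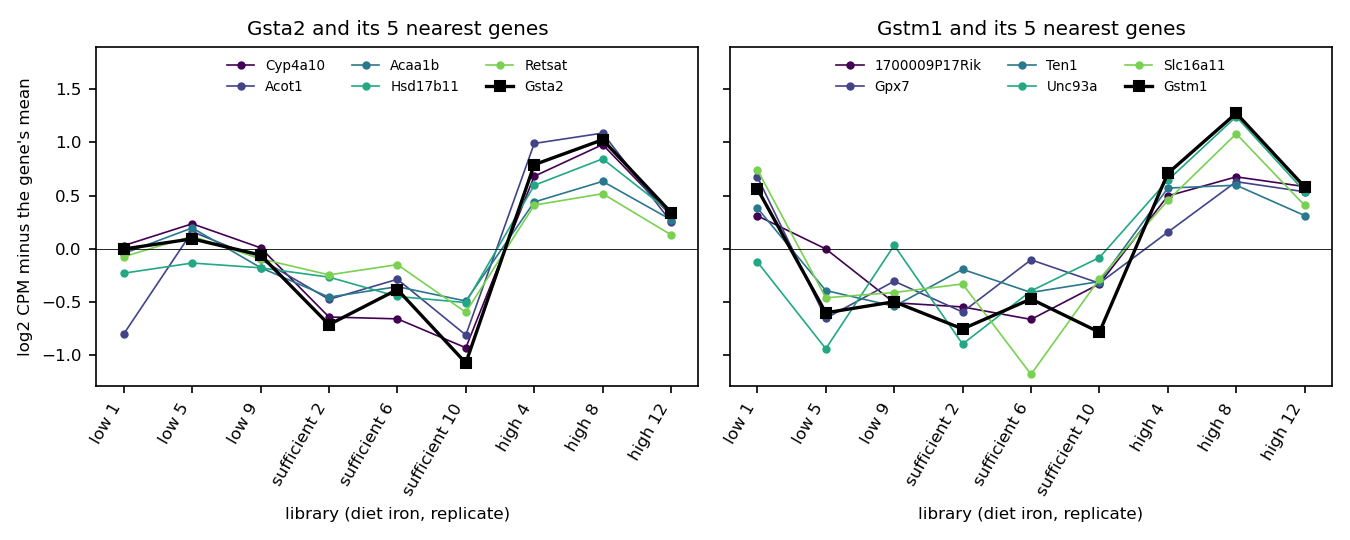
Log2 CPM minus each gene's own mean over the 9 libraries (vertical axis), for Gsta2 (left) and Gstm1 (right) in black and their 5 nearest genes in colour, with libraries ordered by diet. Cyp4a10 follows Gsta2 to a mean absolute difference of 0.10, while the genes nearest Gstm1 are at 0.28 to 0.30.

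The rest of glutathione metabolism showed few calls. Another 13 glutathione transferases were tested, among them Gstm5 of the mu class, and 0 passed in edgeR in any of the 3 comparisons. An unadjusted p under 0.05 was reached by 2 of them for high against sufficient iron and by 7 for low against sufficient iron. DESeq2 called 1 of them in each comparison, Gstt2 for high against sufficient iron and Gstk1 in the others. Their median log2 fold change was 0.18 for high and 0.33 for low against sufficient iron. Gstt2, of the theta class, averaged 59.4 ± 14.8 CPM on high iron and 30.7 ± 3.84 on sufficient iron (log2 fold change 0.95 ± 0.19, edgeR adjusted p = 0.102). Gstk1, of the kappa class, averaged 139 ± 18.1 CPM on low iron and 82.7 ± 12.1 on sufficient iron (0.75 ± 0.15, edgeR adjusted p = 0.446), and Gstt2 was at 48.9 ± 9.27 CPM on low iron. Gstp1, of the pi class, averaged 238 ± 63.9 CPM on high iron and 170.0 ± 26.8 on sufficient iron, and the diets overlapped.

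Of 16 tested genes for glutathione supply and turnover, 0 passed in edgeR in any comparison, with a median log2 fold change of -0.12 for high against sufficient iron, 0.14 for low against sufficient iron and -0.13 for high against low iron. An unadjusted p under 0.05 was reached by 2, 1 and 3 of them in these comparisons, and DESeq2 called Cbs alone, in high against low iron. Without sufficient-iron replicate 6, edgeR called Cbs in that comparison too. Cbs, which commits homocysteine to cysteine synthesis, averaged 221 ± 19.3 CPM on high iron and 292 ± 37.7 on sufficient iron (log2 fold change -0.41 ± 0.13, edgeR adjusted p = 0.398). Gss, glutathione synthetase, averaged 21.9 ± 4.97 CPM on high iron and 37.8 ± 16.3 on sufficient iron (-0.79 ± 0.27, edgeR adjusted p = 0.418). Dpep1, a dipeptidase of glutathione breakdown, averaged 0.37 ± 0.0803 CPM on low iron and 1.04 ± 0.286 on sufficient iron, and Cbs was at 349 ± 33.4 CPM on low iron.

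Of the 7 exporters of glutathione conjugates, Abcc4 rose on high against low iron, at 8.41 ± 1.79 CPM on high iron and 2.25 ± 0.691 on low iron (log2 fold change 1.86 ± 0.30, edgeR adjusted p = 0.0313). Against sufficient iron, at 3.46 ± 1.24 CPM, its log2 fold change was 1.27 ± 0.28 for high iron (edgeR adjusted p = 0.134) and -0.60 ± 0.30 for low iron (edgeR adjusted p = 0.464). The call of Abcc4 was lost when low-iron replicate 5 or 9, or any 1 of the high-iron replicates, was left out, each leaving 0 calls among the exporters. Leaving out low-iron replicate 1 and high-iron replicate 12 together also lost it. Abcc3, a basolateral exporter of hepatocytes, averaged 297 ± 16.2 CPM on high iron and 180.1 ± 26.5 on sufficient iron, and its log2 fold change of 0.72 ± 0.13 did not pass (edgeR adjusted p = 0.058), while DESeq2 called 2 exporters in this comparison, Abcc3 and Abcc4. In edgeR Abcc3 passed without a filter, with the length offset, without low-iron replicate 1 and without sufficient-iron replicate 6. Abcc1 averaged 1.54 ± 0.292 CPM on low iron and 2.91 ± 0.888 on sufficient iron (-0.90 ± 0.30, edgeR adjusted p = 0.446). The exporters' median log2 fold change was 0.14 for high against sufficient, -0.10 for low against sufficient and 0.50 for high against low iron.

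Of 21 tested NRF2 targets that are not transferases, 16 were positive and 5 negative in high against sufficient iron, with a median log2 fold change of 0.28, and 0 passed in edgeR while 8 reached an unadjusted p under 0.05. Over all tested genes the median was -0.01 and 9.28% reached that p. DESeq2 called 4 of the targets, G6pdx, Slc48a1, Abcc3 and Abcc4, all higher on high iron. The negative ones were Osgin1 (log2 fold change -0.34), Gclm (-0.19), Hmox1 (-0.17), Txnrd1 (-0.07) and Gclc (-0.02), none at an unadjusted p under 0.05. The targets include Abcc3, Abcc4 and Slc48a1, a heme transporter at 57.5 ± 7.77 CPM on high iron and 36.8 ± 2.47 on sufficient iron (log2 fold change 0.65 ± 0.14, edgeR adjusted p = 0.121). Low against sufficient iron had a median of -0.01 with 0 past the threshold in edgeR or DESeq2, and 3 at an unadjusted p under 0.05. Tkt and Taldo1, of the pentose phosphate pathway, averaged 131 ± 11.8 and 95 ± 18.3 CPM on low iron, against 106 ± 6.05 and 75.4 ± 1.24 CPM on sufficient iron. In high against low iron edgeR called Abcc4 alone, and DESeq2 called the same 4 genes as against sufficient iron. Slc48a1 passed there in edgeR too without a filter, with the length offset or without low-iron replicate 1, and G6pdx without sufficient-iron replicate 6. It also passed for Slc48a1 without low-iron replicate 1 and high-iron replicate 12 together. Against sufficient iron, Slc48a1 passed in edgeR without low-iron replicate 1. Of 7 genes for NRF2 and its partners and regulators, 0 passed in edgeR in any comparison, and 1 of them, Bach1, a heme-sensing repressor of NRF2 targets, reached an unadjusted p under 0.05 in high against sufficient iron (log2 fold change 0.32 ± 0.12). Sqstm1, which binds the NRF2 inhibitor KEAP1, averaged 315 ± 33.7 CPM on high iron and 369 ± 36.3 on sufficient iron, and Nfe2l2 73.8 ± 8.02 CPM on low iron and 78.9 ± 6.74 on sufficient iron.

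Targets of CAR, PXR and AHR had 0 calls in edgeR in all 3 comparisons. DESeq2 called Cyp2a5 in high and in low against sufficient iron, and Cyp1a2 in low against sufficient and in high against low iron. Among 9 tested genes of CAR and PXR, Cyp2a5 averaged 270.5 ± 78.7 CPM on high iron and 125 ± 19.8 on sufficient iron (log2 fold change 1.11 ± 0.26, edgeR adjusted p = 0.154), and 2 of the 9 reached an unadjusted p under 0.05. The other was Cyp3a11, a main PXR target, at 812 ± 69.9 CPM on high iron and 1223 ± 497 on sufficient iron (-0.59 ± 0.24, edgeR adjusted p = 0.517). On low iron Cyp2a5 averaged 211 ± 63.9 CPM, and Cyp2b9, a CAR target, 7.15 ± 4.37 CPM against 1.76 ± 1.48 on sufficient iron. Among 7 tested genes of AHR, Cyp1a2 averaged 462 ± 72.4 CPM on low iron and 275 ± 61.8 on sufficient iron (0.75 ± 0.20, edgeR adjusted p = 0.446), and Nqo1, a quinone reductase that NRF2 also controls, averaged 9.98 ± 1.31 CPM on high iron and 5.91 ± 2.63 on sufficient iron (0.75 ± 0.26, edgeR adjusted p = 0.441). Cyp1a1, at 0.959 ± 0.244 CPM on high iron and 1.46 ± 0.346 on sufficient iron, and Arnt, the partner of AHR, at 26.1 ± 1.3 CPM on low iron and 32.1 ± 3.48 on sufficient iron, did not pass either.

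Of 12 tested enzymes of lipid aldehydes and peroxides, 0 passed in edgeR in any comparison. DESeq2 called 5 in low against sufficient iron (Aldh1a1, Aldh2, Aldh7a1, Adh5 and Cat) and 3 in high against low iron (Aldh1a1, Aldh2 and Aldh7a1). In low against sufficient iron 11 were positive, with a median log2 fold change of 0.36, and 7 reached an unadjusted p under 0.05, as did 11.2% of tested genes, whose median was 0.00. Hepatocyte markers had a median of 0.31 there, with 6 of 6 positive, and their part in these values was not tested. In high against low iron 10 of the 12 were negative, with a median of -0.22, and 3 reached that p. Aldh7a1 and Aldh2, both aldehyde dehydrogenases, averaged 358 ± 10.3 and 1227 ± 25.4 CPM on low iron, against 271 ± 11.1 and 945 ± 34.5 CPM on sufficient iron. Aldh3a2, a fatty aldehyde dehydrogenase, averaged 618 ± 29.8 CPM on high iron and 490.4 ± 70.6 on sufficient iron (0.33 ± 0.15, edgeR adjusted p = 0.535), and Ptgr1, a prostaglandin reductase, 1.82 ± 0.376 CPM on high iron and 2.73 ± 0.768 on sufficient iron.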

How the data were processed

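Liver RNA was made into Illumina TruSeq libraries and sequenced on a HiSeq instrument, per the labels' protocols. The authors deposited a table of raw read counts by gene symbol for each library. FastQC and the builds mm10 and mm9 appear, with no role, in the submitters' processing notes. Aligner, counter, read length and strand setting: not given in the sources used here. Each table ends in 5 category rows, left out of library sizes and tests, which list 27.5 to 55 M alignments that were not unique, reads outside genes (13.4% to 25.9%) and ambiguous reads (0.477% to 0.917%). Splits between paralogs rest on unique sequence, and reads of overlapping or antisense genes cannot be separated.

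The tests used edgeR 4.0.16 under R 4.3.3 (filterByExpr, 13020 genes; TMM; robust quasi-likelihood fit to 9 libraries with diet as the only term). Benjamini-Hochberg adjustment covered all tested genes, at a threshold of 0.05. CPM used TMM-scaled sizes, with a prior count of 2 for log2 CPM. Mean values carry the SD over 3 mice. The model was tested on simulated data. Alternatives were DESeq2 1.42.0, limma-voom (limma 3.58.1), other scalings and filters, an offset for transcript length, and libraries left out. Transcripts came from GENCODE M21 and promoters from RefSeq. Named were all 10 members, and of each pathway list any call and the 2 lowest p-values against sufficient iron for each diet. The 5 nearest genes to Gsta2 and Gstm1 were named too, as were the NRF2 targets lower on high than on sufficient iron. The members, lists and most tests were chosen with earlier results of these data known. P-values weigh differences between diets against the spread between mice on the same diet, which the main fit estimates from all 9 libraries together.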

Additional observations from a re-analysis of the deposited data

How the results depend on the processing

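No paired analysis was run, since the labels name no pairs or batches. The title numbers run 1, 2, 4, then 5, 6, 8, then 9, 10, 12, each set with 1 liver per diet. Whether these sets were handled together is not given, and a term for them was not tested. Counts over all genes moved with the tool and with single libraries. DESeq2 called 218 genes for high against sufficient, 105 for low against sufficient and 365 for high against low iron, and 413 in the 3-diet test. Without a filter the counts were 45 for high against sufficient iron and 52 in the 3-diet test. The offset for transcript length gave 47 for high against sufficient iron, 111 for high against low iron and 50 in the 3-diet test. Without low-iron replicate 1 and high-iron replicate 12 together the counts were 17, 1 and 31 in the pairwise comparisons, in the same order, and 15 in the 3-diet test. Leaving out high-iron replicate 8 and sufficient-iron replicate 6 together, an alternative chosen after seeing the data, gave 4 for high against sufficient iron, 24 for high against low iron and 3 in the 3-diet test. With single libraries left out the ranges were 0 to 56, 0 to 1, 0 to 112 and 0 to 68.

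Counts of members called in high against sufficient iron were 4 in DESeq2, 2 without a filter, 2 with the length offset, 3 without low-iron replicate 1 and high-iron replicate 12, 0 without the later pair and 0 to 3 with single libraries left out. In high against low iron they were 4 in DESeq2, 0 with the 6 compared libraries alone, 2 with the length offset, 2 without low-iron replicate 1 and high-iron replicate 12, 0 without the later pair and 0 to 2 with single libraries left out. In the 3-diet test they were 6 in DESeq2, 1 with upper-quartile scaling, 2 without a filter, 1 with the length offset, 2 without low-iron replicate 1 and high-iron replicate 12 and 0 to 3 with single libraries left out. In low against sufficient iron DESeq2 called 2 members. The causes were not tested.

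The values that changed direction are these, none of which passed the threshold in any alternative. The log2 fold change of Gsta1 for high against sufficient iron was -0.14 with the length offset and -0.28 to 1.40 with single libraries left out, among them -0.11 without sufficient-iron replicate 2 and -0.13 without high-iron replicate 8. Gsta3 in that comparison was 0.06 without low-iron replicate 1 and high-iron replicate 12, and -0.08 to 0.06 with single libraries left out (0.05 without sufficient-iron replicate 2). Gstm3 was -0.16 to 1.12 with single libraries left out (-0.09 without sufficient-iron replicate 2). In low against sufficient iron Gsta4 was -0.02 with the length offset, Gstm4 0.01 without sufficient-iron replicate 2 and -0.12 to 0.01 over single libraries, and Gstm3 0.02 in limma-voom, 0.66 without the later pair and -0.63 to 0.65 over single libraries. In high against low iron Gstm7 was -0.01 without the later pair and -0.01 to 0.20 over single libraries. Gsta1 had the fewest reads, 9 to 95 a library. In low against sufficient iron DESeq2 gave no adjusted p for 7 of the 10 members, so its count covers the other 3. Pathway genes without an adjusted p were not counted, so its calls in that comparison may cover only part of each list.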

Other observations

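Sufficient-iron replicate 6 was the highest of all 9 livers for Gstm3, at 142 CPM, and for Gsta1, at 2.19 CPM. The genes nearest to Gstm3 in pattern over the 9 libraries, looked up after its values were seen, were Psat1 (0.23 log2 units), Nt5c3l and Smox (0.24 each), Anxa2 (0.26) and Ly6d (0.27). Anxa2, a membrane-binding annexin, had 40.1 CPM in that liver and 12.1 to 23.1 CPM in the other 8. Smox, spermine oxidase, had 4.05 CPM there and 1.44 to 2.74 CPM elsewhere. Ly6d had 11.2 CPM there and 2.18 to 6.48 CPM elsewhere. Psat1, an enzyme of serine synthesis, had 2.51 CPM there and 0.855 to 1.92 CPM elsewhere. Summed markers of stellate cells and fibroblasts were 454 CPM in that liver and 191 to 327 CPM in the other 8, and summed adipocyte markers were 67.4 CPM and 11.1 to 37.9 CPM. Of the 3 tested adipocyte markers, Cidec varied most on sufficient iron, at 24.7 ± 27.9 CPM. Fabp4 was at 6.83 ± 2.58 and Cfd at 0.813 ± 0.263 CPM there, so the adipocyte sum leaned on 1 gene. Whether these move together for a common reason was not tested.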
